A study of Mus musculus with 24 samples.

Results

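Apolipoproteins and the proteins that load lipid onto them were examined in the livers of mice fed 3 high-fat diets. The group consists of 10 genes, chosen by symbol: Apob, Mttp, Tm6sf2, Apoa1, Apoa2, Apoa4, Apoa5, Apoc1, Apoc3 and Apoe. They are 10 of the 18820 genes that have a probe set of their own on the array, and all 10 were measured. A gene with several such probe sets was read from the one with the highest mean over all livers.

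The study fed male mice on a C57BL/6J background, aged between 4 and 6 months, one of 3 diets for 7 weeks, with 8 mice per diet and a separate array for each liver. The Trans diet took its fat from partially hydrogenated soy oil and was rich in trans-unsaturated fatty acids. The Cis diet used canola and palm olein oil and was rich in cis-unsaturated fatty acids. The Saturated diet used cocoa butter and was rich in saturated fatty acids. In all 3 diets 45% of the energy came from fat, so none of the groups is a low-fat reference. The deposited values are log2 signals, in which a difference of 1 is a doubling of the signal, and they ran from 0.3093 to 13.46 over the table. Correlated with each of the other arrays, Trans replicate 4 had the lowest median r (0.9748), followed by Cis replicate 8 (0.9789) and Cis replicate 7 (0.979). No array exceeded 0.9855.

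The liver packs triglyceride and cholesterol ester into very low density lipoprotein (VLDL), and each particle is built around a single molecule of apolipoprotein B. Microsomal triglyceride transfer protein, the product of Mttp, adds lipid to apolipoprotein B while it is being made, and TM6SF2 helps the particle to gain more lipid before it is secreted. Smaller apolipoproteins then sit on the surface of the particle: APOC3 and APOC1 restrain its breakdown and uptake, APOA5 favours lipolysis, and APOE is recognised by the receptors that clear remnants. APOA1 and APOA2 are the main proteins of high density lipoprotein (HDL), and APOA4 is a lipid-binding apolipoprotein made by the intestine and, in mice, also by the liver. Fat accumulation in hepatocytes depends in part on how much lipid leaves the cell by this route, which is why these genes are of interest in a study of fatty liver.

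No difference between any 2 diets passed the test for any of the 10 genes. The limma test over all 35556 probe sets called 0 of 10 at an adjusted p under 0.05 for Trans against Saturated, 0 of 10 for Trans against Cis and 0 of 10 for Cis against Saturated. Calls were rare on the whole array, at 0.00844%, 0.00281% and 0% of the probe sets, respectively. At an unadjusted p under 0.05 the counts were again 0 of 10 in each comparison, while 8.33%, 6.48% and 6.89% of all genes passed that limit, and 11.3%, 7.25% and 8.08% of the 8349 genes with a mean signal over 20. The values of the diets overlapped for all 10 genes in each comparison. How often they overlap over all genes is not given here, so this count is not particular to the 10. The mean of the Trans livers was above that of the Saturated livers for 4 genes and below it for 6. Trans against Cis and Cis against Saturated each divided into 5 genes above and 5 below. The median log2 difference of the 10 genes was −0.024, 0.001 and 0.008, beside 0.004, 0.001 and 0.004 for all genes.

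The precision differed between the genes. For the 8 genes other than Apoa4 and Tm6sf2, the 95% confidence intervals of the difference between diets all lay between 0.836-fold and 1.13-fold, so changes beyond that range fell outside the intervals of these arrays. For Apoa4 the interval reached up to 1.77-fold and for Tm6sf2 down to 0.665-fold, both in Trans against Cis. The wide intervals go with a wide spread between mice of the same diet. A whole liver was measured, so fewer cells making a transcript and less transcript per cell cannot be told apart.

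**Figure D1:**
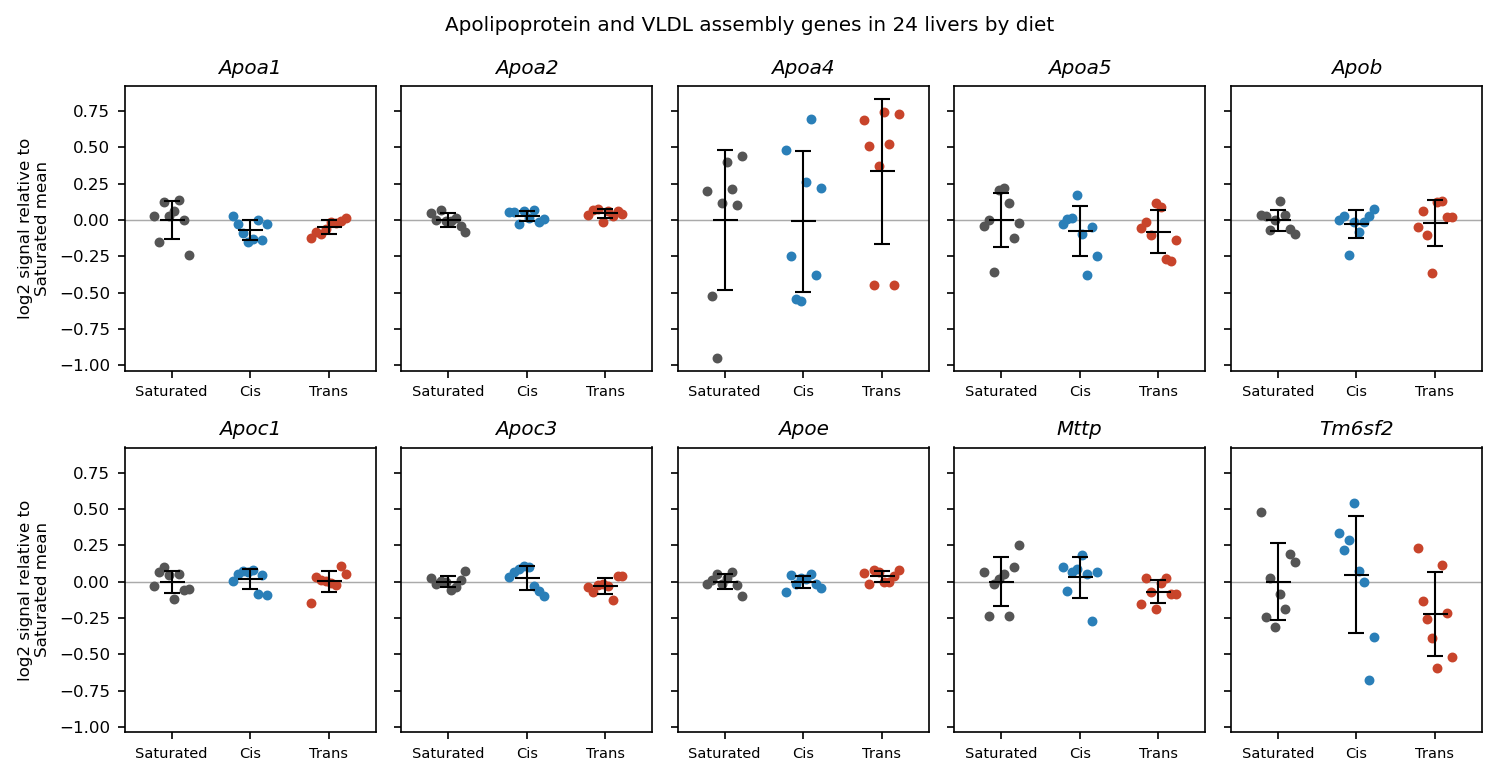
Log2 signal of each gene in each of the 24 livers, with the Saturated mean of that gene subtracted, by diet; points are livers and bars the mean ± SD of 8 livers. Apoa4 and Tm6sf2 spread widely within every diet, whereas Apoa2 and Apoe form narrow bands, and the diets overlap for all 10 genes.

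**Figure D2:**
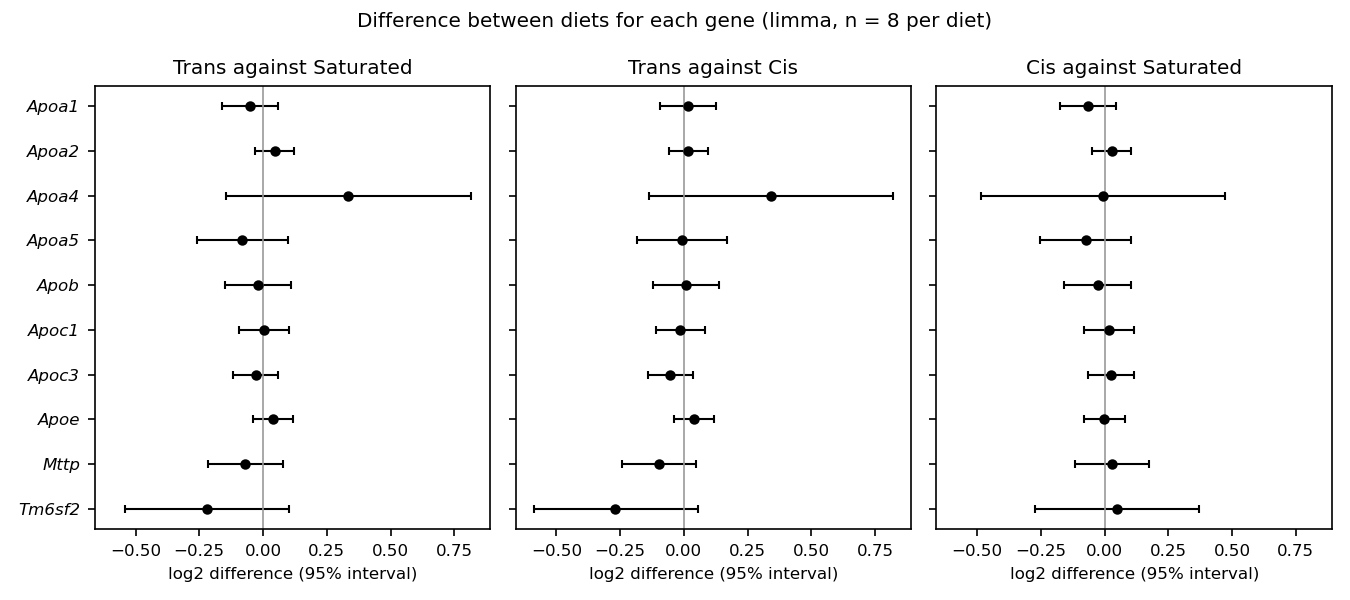
Log2 difference between diets for each gene with its 95% confidence interval from limma, in 3 panels for the 3 comparisons (8 livers per diet). Every interval crosses 0, and those of Apoa4 and Tm6sf2 are the widest.

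Apob, which codes for the structural protein of VLDL, had nearly the same level on the 3 diets. In Saturated livers its log2 signal had a lowest value of 11.81, a median of 11.92 and a highest value of 12.04. In Cis livers these values were 11.67, 11.90 and 11.98, and in Trans livers 11.54, 11.93 and 12.04. The ranges overlapped almost fully, and the lowest liver of all was Trans replicate 4, the array with the lowest correlation to the others. The mean order was Saturated, Trans, Cis, and neighbours in that order did not differ beyond their spread. The log2 difference was −0.02 for Trans against Saturated (95% interval −0.15 to 0.111), 0.01 for Trans against Cis (−0.122 to 0.139) and −0.03 for Cis against Saturated (−0.158 to 0.103). Without Trans replicate 4 the first of these was 0.03, so its direction rests on that liver.

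Mttp, whose product transfers triglyceride to apolipoprotein B in the endoplasmic reticulum, was slightly lower on average on the Trans diet. Its log2 signal in Saturated livers ran from 9.34 to 9.83 with a median of 9.61. In Cis livers it ran from 9.31 to 9.76 with a median of 9.65, and in Trans livers from 9.39 to 9.61 with a median of 9.50. All 8 Trans livers lay below the mean of the Cis livers, but the lowest liver of all was Cis replicate 7, so the groups overlapped. Trans minus Cis was −0.10 ± 0.07 (SE) on the log2 scale, a change in signal of −6.51%, and did not pass the test (limma, adjusted p = 0.864). Trans minus Saturated was −0.07 (adjusted p = 0.898) and Cis minus Saturated 0.03 (adjusted p = 0.966).

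Tm6sf2, which codes for a membrane protein of the secretory pathway that promotes lipid loading of VLDL, was lowest on average on the Trans diet, with a much wider spread. Its log2 signal had a lowest value of 7.54, a median of 7.82 and a highest value of 8.33 in Saturated livers. The values in Cis livers were 7.17, 8.00 and 8.39, and those in Trans livers were 7.26, 7.62 and 8.09. Of the 8 Trans livers, 6 lay below the mean of each of the other diets, but Cis replicate 7 was lower than any Trans liver. The log2 difference was −0.22 ± 0.16 (SE) for Trans against Saturated (adjusted p = 0.815), −0.27 ± 0.16 for Trans against Cis (adjusted p = 0.826) and 0.05 for Cis against Saturated (adjusted p = 0.975). Without Cis replicate 7, which was the lowest liver for both Tm6sf2 and Mttp, Trans minus Cis was −0.37 for Tm6sf2 (limma, adjusted p = 0.788) and −0.14 for Mttp (adjusted p = 0.865). With that liver left out both genes passed 0.05 before the adjustment and neither passed it after. The array of Cis replicate 7 was among those with the lowest correlation to the others (median r 0.979). Among the fits that left out a single liver, this fit gave both genes their smallest unadjusted p and most negative value for Trans minus Cis. At the other end, Tm6sf2 had −0.1972 without Cis replicate 4 and Mttp had −0.0755 without Cis replicate 5. The share of all genes passing 0.05 before the adjustment in this fit is not given here, so these passes cannot be set against it.

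Apoa5 codes for a minor but potent plasma protein that promotes the hydrolysis of triglyceride by lipoprotein lipase. Its log2 signal ran from 10.09 to 10.66 in Saturated livers (median 10.43), from 10.06 to 10.61 in Cis livers (median 10.40) and from 10.16 to 10.56 in Trans livers (median 10.36). The 3 ranges were nearly the same. The mean was highest on the Saturated diet, with Trans at −0.08 (95% interval −0.258 to 0.097) and Cis at −0.07 (−0.252 to 0.102) relative to it.

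Apoc3 and Apoc1 code for small apolipoproteins that slow lipolysis and the uptake of remnants. Apoc3 lay between 12.03 and 12.27 in all 24 livers, with medians of 12.16 (Saturated), 12.21 (Cis) and 12.13 (Trans). Its largest difference was Trans minus Cis, at −0.05 (adjusted p = 0.885), with 6 of 8 Trans livers below the Cis mean. Apoc1 lay between 11.95 and 12.20, with medians of 12.10, 12.14 and 12.10. Its mean differed between diets by no more than 0.017 on the log2 scale. Both genes therefore varied over the 24 livers by 1.18-fold and 1.19-fold in all, from the lowest to the highest liver.

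Apoe, the ligand through which remnants bind their receptors, was on average 2.66% higher in Trans than in Saturated livers and 2.77% higher than in Cis livers. The log2 signal ran from 12.78 to 12.95 in Saturated livers, from 12.81 to 12.93 in Cis livers and from 12.87 to 12.96 in Trans livers. The ranges overlapped, although 6 of 8 Trans livers exceeded the mean of each other diet. The limma test gave adjusted p = 0.896 and 0.916, and the exact permutation test over all 12870 relabelings gave p = 0.11 and 0.0712 (two-sided).

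Apoa1 and Apoa2, which code for the HDL proteins, had the Saturated diet at opposite ends of their order, and neither passed the test. Apoa1 had its highest mean on the Saturated diet, 12.78 ± 0.133 (SD, n = 8), against 12.72 ± 0.0674 on Cis and 12.73 ± 0.0488 on Trans. The spread in the Saturated group came from livers on both sides, from 12.54 in replicate 8 to 12.92 in replicate 6, so the other diets lay inside its range. Apoa2 had its highest mean on the Trans diet, 12.97 ± 0.0303, against 12.95 ± 0.0361 on Cis and 12.93 ± 0.048 on Saturated. Trans exceeded Saturated by 0.05 on the log2 scale, or 3.24%, and the Saturated mean was exceeded in 7 of 8 Trans livers. This was the smallest of the 30 exact permutation p-values computed for these genes, at 0.0367 without adjustment (two-sided), whereas limma, which widens very small spreads toward those of other probe sets, gave p = 0.226 and an adjusted p of 0.844.

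The signals of Apoa2, Apoe and Apoa1 lay near the top of the array's range. Their highest values were between 0.452 and 0.532 log2 units below the highest value of the whole table. Whether differences in these transcripts are compressed at such signals was not tested.

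Apoa4, the apolipoprotein shared by intestine and mouse liver, differed most from mouse to mouse. In Saturated livers its log2 signal had a lowest value of 10.39, a median of 11.50 and a highest value of 11.78. In Cis livers these values were 10.78, 11.33 and 12.04, and in Trans livers 10.89, 11.86 and 12.08. Low and high livers thus occurred on every diet. The mean was 26.2% higher on Trans than on Saturated, at 0.34 ± 0.23 (SE) on the log2 scale (limma, adjusted p = 0.808), and 26.8% higher than on Cis, at 0.34 ± 0.23 (adjusted p = 0.855), with 6 of 8 Trans livers above the mean of each other diet. Cis and Saturated differed by −0.01 (95% interval −0.486 to 0.472). A second Apoa4 probe set of much lower signal followed the first closely in the deviations of livers from their diet means (Pearson's r = 0.94 over 24 livers) and gave 0.54 for Trans against Saturated (limma p = 0.0809) and 0.52 for Trans against Cis (p = 0.0918). Leaving out one liver at a time moved the difference from Saturated between 0.20, without Saturated replicate 3, and 0.45, without Trans replicate 7, and no such fit passed the test. Without Saturated replicate 2, another of the low livers, it was 0.26.

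A gap was sought in the middle of the sorted Apoa4 values, as the widest step between neighbouring livers away from both ends. The step from the lowest liver, Saturated replicate 3 at 10.39, to the next, Cis replicate 4 at 10.78, was wider but not searched. At the gap found, 8 livers lay between 10.39 and 11.09, the other 16 between 11.44 and 12.08, and no liver fell between. The 8 low livers were replicates 2 and 3 on the Saturated diet, replicates 2, 3, 4 and 7 on the Cis diet and replicates 3 and 7 on the Trans diet. Each diet thus had livers on both sides of the gap. Replicate number 3 was low on all 3 diets, number 2 on Saturated and Cis, and number 7 on Cis and Trans. Livers numbered 1, 5, 6 and 8 lay above their diet mean on all 3 diets and number 3 below it, while 2, 4 and 7 were mixed. With the replicate number as a block, the Trans minus Saturated difference stayed 0.3352. Its limma p went from 0.162 to 0.03 before the adjustment, with an adjusted p of 0.632. The labels do not say what the numbers stand for, and how much of the spread goes with them was not tested. From the lowest to the highest liver the signal differed 3.23-fold.

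Measured against genes of like signal, Apoa4 stood at the top in its spread within diets. Its SD, pooled over the 3 diets, was 0.488 on the log2 scale. None of the 74 genes whose mean lies within 0.5 of that of Apoa4 had a larger SD, and their median was 0.116. Tm6sf2 came next among the 10 genes, with an SD of 0.323, exceeded by 74 of 1083 genes of like signal (6.83%). Apoa5 (0.169) and Apoa1 (0.0904) lay above most of their neighbours, with 23.9% and 23.5% of genes of like signal having a larger SD. Apob (0.116), Mttp (0.133) and Apoc1 (0.0731) lay nearer the middle, with 34.5%, 56.7% and 61.4%. The lowest SDs were those of Apoc3 (0.0605), Apoe (0.0443) and Apoa2 (0.0388), for which 85.4%, 90% and 100% of such genes had a larger one, the last being 8 of 8. These are descriptions of the same 24 livers, without a test.

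**Figure D3:**
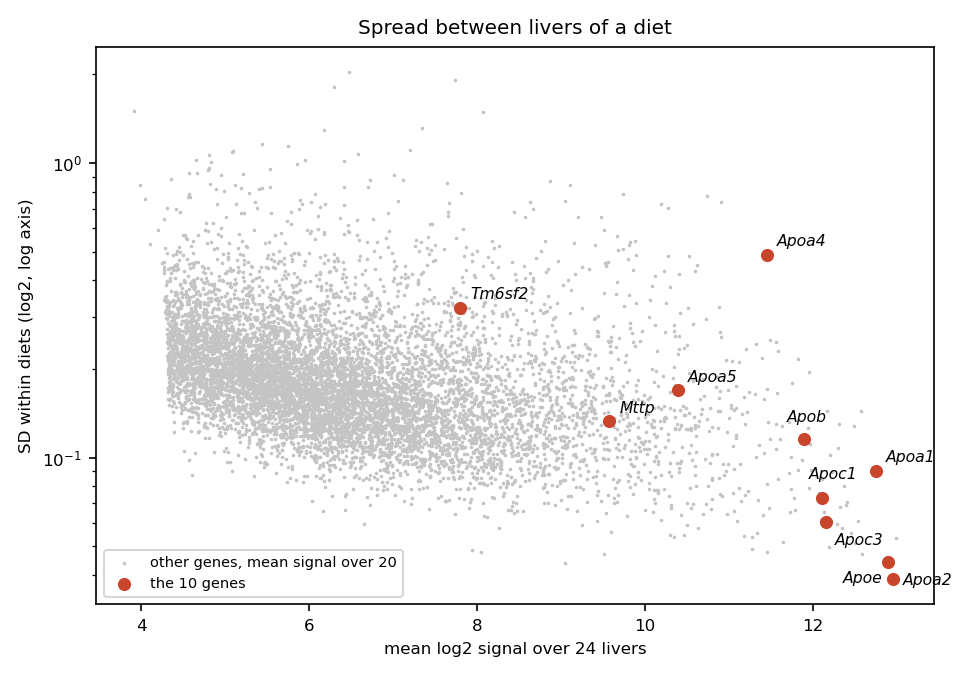
SD within diets (log axis) against the mean log2 signal over 24 livers, for the 10 genes (red) and all other genes with a mean signal over 20 (grey). Apoa4 lies above the genes of like signal, Tm6sf2 near the upper edge, and Apoe and Apoa2 at the lower edge at the far right.

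Among the 10 genes, 4 are neighbours on mouse chromosome 9, in the order Apoa1, Apoc3, Apoa4, Apoa5, and Apoc1 and Apoe lie together on chromosome 7. The correlation between neighbours was weak over all livers and uneven between diets. Over the 24 livers, the deviations of Apoa4 from its diet means had a Pearson's r of 0.10 with those of Apoa1, −0.25 with Apoc3 and 0.12 with Apoa5, and Apoc1 had 0.23 with Apoe. Within diets, Apoa4 with Apoa5 had 0.70 in Saturated, −0.78 in Cis and 0.42 in Trans livers, and Apoa4 with Apoa1 had −0.18, 0.68 and 0.10, each over 8 livers. The start regions of 3 of the chromosome 9 genes are shown because neighbours that differ so much in spread can be compared there letter by letter. Each runs from 250 bases before to 50 bases after the start site, 5′ to 3′ on the plus strand of GRCm38.p6, from RefSeq; these are Apoa1 at chr9:46228380-46228679, Apoa4 at chr9:46240594-46240893 and Apoa5 at chr9:46268358-46268657. Capitals mark a match to CAAAGTNCA, a form of the site bound by HNF4 and related nuclear receptors, or to the TATA box TATAAA, and AGGTCA, the nuclear receptor half-site, was searched as well, all on both strands.
Apoa1: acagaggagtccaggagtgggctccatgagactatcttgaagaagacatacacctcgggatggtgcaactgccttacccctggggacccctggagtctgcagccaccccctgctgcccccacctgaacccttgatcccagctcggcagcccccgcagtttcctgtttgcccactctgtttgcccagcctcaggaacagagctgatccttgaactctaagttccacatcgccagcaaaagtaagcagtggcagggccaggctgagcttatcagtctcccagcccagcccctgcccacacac
Apoa4: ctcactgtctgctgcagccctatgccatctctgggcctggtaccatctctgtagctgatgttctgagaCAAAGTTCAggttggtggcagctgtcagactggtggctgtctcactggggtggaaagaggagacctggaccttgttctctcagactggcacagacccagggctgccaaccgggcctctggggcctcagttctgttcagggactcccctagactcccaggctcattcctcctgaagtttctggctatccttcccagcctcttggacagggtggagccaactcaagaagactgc
Apoa5: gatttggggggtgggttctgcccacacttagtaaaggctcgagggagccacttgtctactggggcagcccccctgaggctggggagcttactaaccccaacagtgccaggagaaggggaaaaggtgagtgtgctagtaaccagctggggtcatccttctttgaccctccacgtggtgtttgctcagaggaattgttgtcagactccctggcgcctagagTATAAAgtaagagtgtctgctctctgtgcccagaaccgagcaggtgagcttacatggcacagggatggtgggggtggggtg

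The Apoa4 window held CAAAGTTCA at base 69, the Apoa5 window held TATAAA at base 220, and the Apoa1 window matched none of the 3 motifs. Of the 32851 windows of this length in the table, 1.41% held CAAAGTNCA, 13.6% TATAAA and 16.3% AGGTCA. A match describes the letters only. Of the 10 genes, 7 have such a window in the table, and Apoc1, Apoc3 and Tm6sf2 do not.

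Among the 45 pairs of the 10 genes, the deviations from diet means were weakly related in most, with a median absolute Pearson's r of 0.19. The strongest pair was Apoa4 with Apoc1 at −0.65 (Spearman's rho −0.63), negative on each diet, at −0.76 in Saturated, −0.70 in Cis and −0.50 in Trans livers. Without the 2 livers farthest from the Apoa4 median it was −0.54. On either side of the Apoa4 gap, r was taken between the log2 signals, with diet means left in. It was −0.55 within the 8 livers below and −0.18 within the 16 above. The livers were split on Apoa4 itself, which narrows its range on each side, so these values cannot be set against −0.65. Apoa1 and Apoa2 had r = 0.54, but −0.04 within Trans livers, and Apoe and Mttp had −0.53, but −0.05 within Cis livers. Mttp and Tm6sf2, both of lipid loading, had r = 0.48, which was 0.25 without the 2 livers farthest from the Mttp median. Apoc1 and Apoc3 also had r = 0.48. All of these share livers, arrays and normalization and are given as descriptions.

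**Figure D4:**
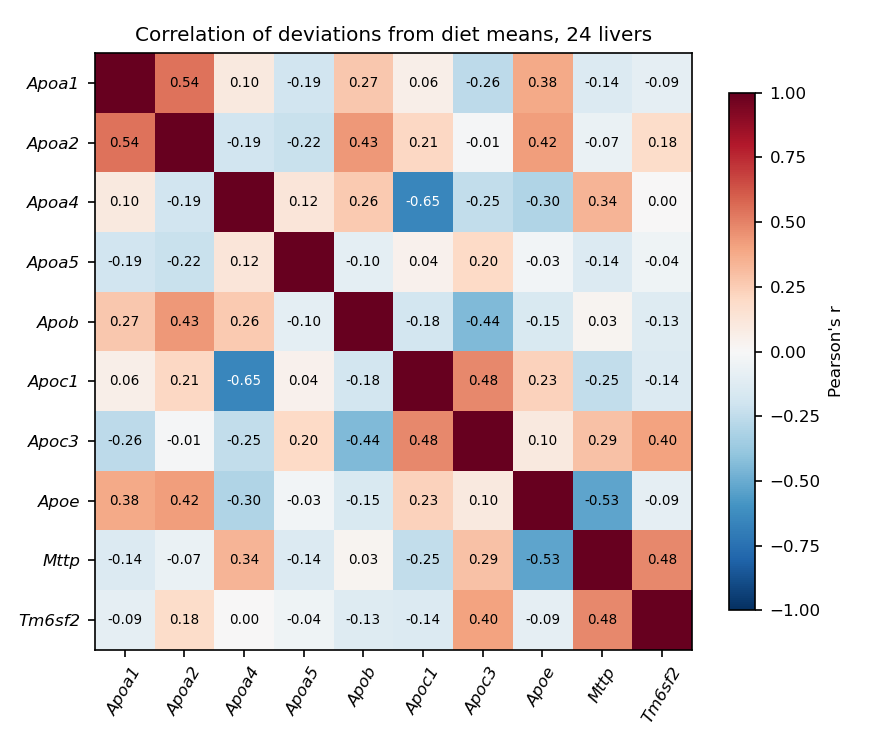
Pearson's r between the 10 genes for deviations of each liver from its diet mean, over 24 livers; the colour and the number in a cell are the same r. Apoa4 with Apoc1 (−0.65) is the strongest pair, and most other cells are pale.

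The genes that followed Apoa4 most closely from liver to liver were sought among 8339 other genes with a mean signal over 20. They were Mmp12 (r = 0.83), Cidec (0.82), Gpx4 (0.80), Lgals1 (0.77) and Krt8 (0.76). The mean signal of Mmp12, not on the log scale, was 14.39 in Saturated, 20.86 in Cis and 46.01 in Trans livers. Mmp12 thus passed the limit of 20 mainly through the Trans livers, and its signal on the other diets was low. Mmp12 codes for macrophage elastase, Cidec for a protein that enlarges lipid droplets, Gpx4 for a glutathione peroxidase that reduces lipid peroxides, Lgals1 for galectin 1 and Krt8 for a keratin of epithelial cells including hepatocytes. The correlation was positive within each diet for all 5, from 0.62 for Gpx4 in Saturated livers to 0.97 for Krt8 in Cis livers. On either side of the Apoa4 gap, r was again taken between log2 signals, with diet means left in and the range of Apoa4 narrowed. It was similar below and above for Mmp12 (0.79 and 0.79), Cidec (0.81 and 0.76) and Lgals1 (0.88 and 0.74). Gpx4 (0.31 and 0.72) and Krt8 (0.29 and 0.84) had a lower r below the gap than above. These 5 genes were picked as the highest of many, so the values of r are a description without a test. Differences between replicate numbers were not removed from the deviations.

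Between diets, none of these 5 genes had an adjusted p under 0.05 in any comparison. Cidec had a median log2 signal of 5.2 in Saturated, 6.19 in Cis and 6.70 in Trans livers, with a lowest value of 3.27, 5.22 and 5.85 and a highest value of 6.21, 7.66 and 7.76. All 8 Trans livers exceeded the Saturated mean although the ranges overlapped, and the log2 difference was 1.57 ± 0.37 (SE), or 2.974-fold (limma, adjusted p = 0.219). Against the same Saturated livers, Cis gave 1.235 (adjusted p = 0.579). Trans minus Saturated was 0.62 for Krt8 (adjusted p = 0.198), 1.41 for Mmp12 (adjusted p = 0.387), 0.76 for Lgals1 (adjusted p = 0.474) and 0.14 for Gpx4 (adjusted p = 0.797). Trans minus Cis was 0.56 for Krt8 (adjusted p = 0.55), 1.07 for Mmp12 (adjusted p = 0.767), 0.337 for Cidec (adjusted p = 0.934), 0.024 for Lgals1 (adjusted p = 0.994) and 0.046 for Gpx4 (adjusted p = 0.97). Beside the 0.335 and 0.342 of Apoa4 in these comparisons, Krt8 and Mmp12 had larger values in both and Gpx4 smaller values in both. Saturated replicate 3, lowest in Apoa4, was also lowest of its diet in Cidec, Mmp12 and Lgals1. Summed signals of macrophage markers, a list that does not hold Mmp12, ran from 908.8 to 1669 in Saturated, from 881.8 to 1480 in Cis and from 798.1 to 1516 in Trans livers, and their part in these values was not tested.

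**Figure D5:**
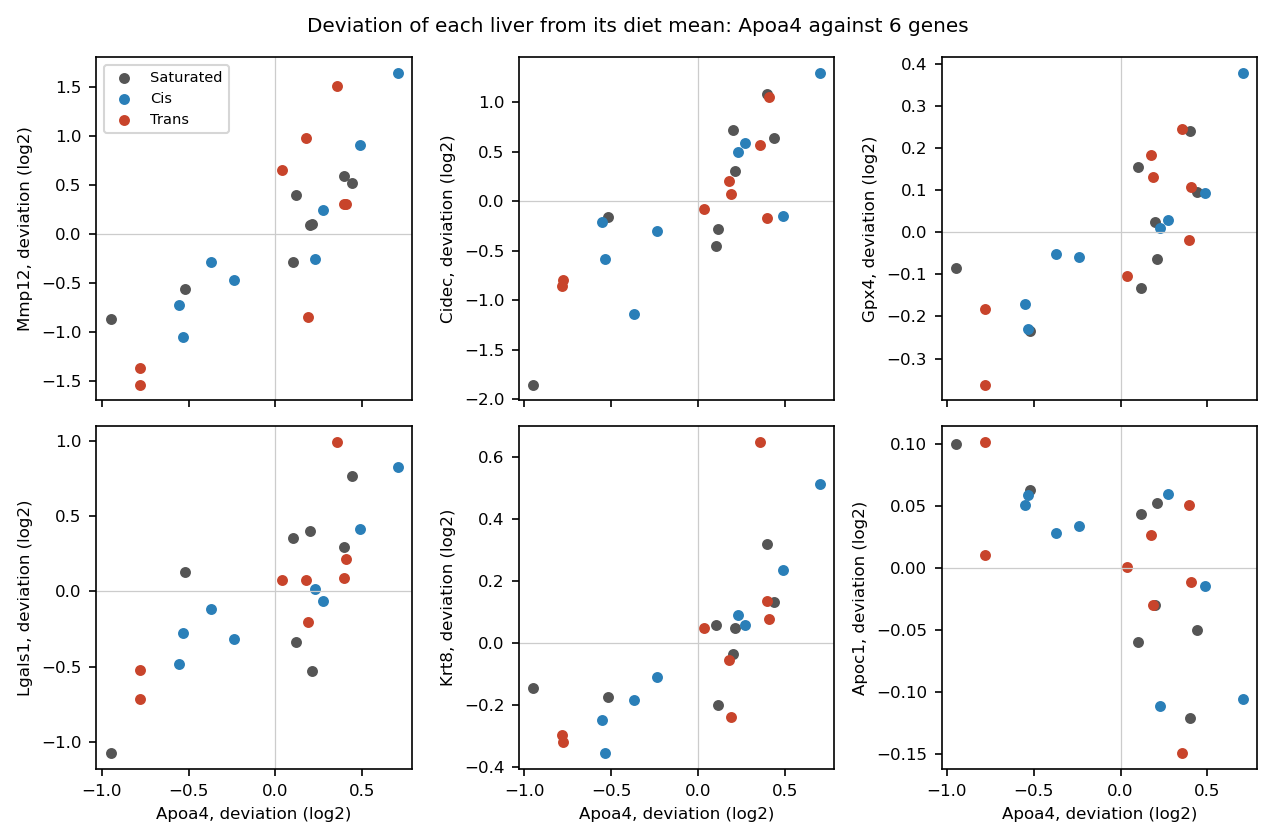
Deviation of each liver from its diet mean (log2) for 6 genes against that of Apoa4, with points coloured by diet. Mmp12, Cidec, Gpx4, Lgals1 and Krt8 run upward with Apoa4 on all 3 diets, Apoc1 runs downward, and the livers of each diet lie on both sides of 0.

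Tm6sf2 was followed most closely by Tecr (0.79), which codes for the reductase of the last step of very long chain fatty acid elongation, Mdh2 (0.79), the mitochondrial malate dehydrogenase, Tcn2 (0.77), a carrier of vitamin B12, Lsm10 (0.75) and Slain2 (0.74). The 5 genes nearest to Apoa5 were Tgm1 (0.73), Gpd1l (0.72), Arhgap21 (0.71), Bnip3 (0.70) and Ldb1 (0.70). None of these was among the genes nearest to Apoa4.

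Of 59 further genes of lipoprotein metabolism, in 4 lists, 51 were measured. Again 0 of 51 passed the limma test in each comparison at an adjusted p under 0.05. At an unadjusted p under 0.05, Trans against Saturated had 3 higher and 6 lower genes, beside 4.55% and 3.78% of all genes in these directions. Trans against Cis had 2 higher and 4 lower, beside 3.5% and 2.99%, and Cis against Saturated had 1 higher and 3 lower, beside 3.47% and 3.42%. The median log2 differences were −0.012, −0.018 and 0.008.

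A list of 8 genes held other apolipoproteins and Apobec1, which is not one. Among them Apom, which codes for the HDL carrier of sphingosine 1-phosphate, ran from 7.34 to 8.16 in Saturated livers (median 7.70). In Trans livers it ran from 7.20 to 7.60 (median 7.43). All 8 Trans livers lay below the Saturated mean, at −0.30 ± 0.10 (SE; limma, adjusted p = 0.492). Apoc2, the activator of lipoprotein lipase, had medians of 11.03 in Saturated, 10.98 in Cis and 11.20 in Trans livers, with Trans minus Cis at 0.20 (limma, adjusted p = 0.763). Apof, which codes for a lipid transfer inhibitor protein, had a Trans minus Saturated difference of −0.105 (adjusted p = 0.59). Apobec1, the enzyme that edits the Apob transcript, had a Cis minus Saturated difference of −0.27 (adjusted p = 0.664).

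Among 18 measured factors of assembly and secretion, Sort1, a sorting receptor that binds apolipoprotein B, had lower means than in Saturated livers on both other diets, at −0.39 in Trans (limma, adjusted p = 0.641) and −0.48 in Cis (adjusted p = 0.642). These comparisons share the Saturated livers. Dgat2, which makes triglyceride, had a Trans minus Cis difference of −0.23 (adjusted p = 0.779), with 8 of 8 Trans livers below the Cis mean. Pemt, which makes phosphatidylcholine, had a Trans minus Saturated difference of −0.12 (adjusted p = 0.654). Ces1d, a hydrolase of stored triglyceride, had its highest mean on Cis, with Cis minus Saturated at 0.31 (adjusted p = 0.809) and Trans minus Cis at −0.29 (adjusted p = 0.83).

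Among 10 measured genes of lipases, receptors and HDL handling, the widest difference was that of Angptl8, a feeding-induced secreted protein that restrains lipoprotein lipase. Its log2 signal had a lowest value of 7.66, a median of 9.04 and a highest value of 10.06 in Saturated livers, 7.80, 9.02 and 10.02 in Cis livers, and 7.49, 8.11 and 8.75 in Trans livers. All 8 Trans livers lay below the mean of each other diet, while the ranges overlapped. Trans minus Saturated was −0.88 ± 0.33 (SE; limma, adjusted p = 0.554) and Trans minus Cis −0.78 (adjusted p = 0.8). Sdc1, a heparan sulphate proteoglycan that binds remnants, had medians of 8.19 in Saturated, 8.48 in Cis and 8.17 in Trans livers, with Trans minus Cis at −0.33 (limma, adjusted p = 0.597) and Cis minus Saturated at 0.28 (adjusted p = 0.63).

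Among 15 measured transcription regulators, the coactivators Ppargc1b and Ppargc1a had the smallest p-values. Ppargc1b had a Trans minus Saturated difference of 0.45 (limma, adjusted p = 0.513). Its mean signal, not on the log scale, was low, at 18.68 in Saturated, 20.61 in Cis and 25.55 in Trans livers. In the same comparison Ppargc1a went the other way, at −0.33 (adjusted p = 0.62). Ppargc1a had a Cis minus Saturated difference of −0.51 (adjusted p = 0.502), and its signal was below the Saturated mean in 8 of 8 Cis livers. Creb3l3, which codes for a hepatic factor that activates Apoa4 and other apolipoprotein genes, had a Trans minus Saturated difference of 0.15 (adjusted p = 0.591), and 8 of 8 Trans livers exceeded the Saturated mean. No gene of these lists passed the test.

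The tissue matched its label. All 11 hepatocyte markers were measured, with mean log2 signals of 9.36 or more, and their summed signal ran from 41960 to 44760 in Saturated, from 40510 to 43350 in Cis and from 40980 to 43180 in Trans livers. Because Apoa4 is also made in the intestine, enterocyte markers were read beside it. Apart from Fabp2, a fatty acid binding protein gene, at a mean of 9.68, the other 6, among them Cdx2, Vil1 and Alpi, had means of 2.06 or less, below the medians of the arrays (2.94 to 3.056). Fabp2 had a Trans minus Saturated difference of 0.325 (limma, adjusted p = 0.483). Smooth muscle markers were low but higher on average in Trans livers for 6 of 6 genes, with a median difference of 0.39 from Saturated and 0.416 from Cis. Their sums ran from 48.25 to 75.32 in Saturated (median 60.07), 46.93 to 86.27 in Cis (median 55.26) and 54.95 to 206.1 in Trans livers (median 68.14). Cnn1 (mean 1.83), Synpo2 (1.91) and Actg2 (2.29) lay below the medians of the arrays. The part of smooth muscle in the values above was not tested.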

How the data were processed

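RNA of 24 mouse livers was measured on the Affymetrix Mouse Gene 1.1 ST platform, 1 array per mouse. Background correction, normalization between arrays and summary over probes were done by the authors with RMA (robust multi-array average), which gave the deposited log2 signal per probe set and liver. Probe sets in the table are the 35556 of the array design, and not those redefined by gene that the methods describe. Of these, 21218 have 1 gene, 1881 several and 12457 none listed. All columns were used. RMA evens out the distribution of signal between arrays, so a shift common to most transcripts would not be visible. The number of arrays limits the precision, and array data carry no read depth.

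A model of the 3 diets was fitted with limma 3.58.1 in R 4.3.3 (lmFit and eBayes, 21 residual degrees of freedom), with two-sided tests and Benjamini-Hochberg adjustment over all probe sets within a comparison. Calls were made at an adjusted p under 0.05. The procedure was tested on simulated data. Correlations use deviations from diet means, except those on either side of the Apoa4 gap, which use log2 signals. Genes named beside the 10 are, per list, up to 3 with the smallest p in each comparison, and the 5 that follow each of the 3 most variable genes most closely. The 10 genes and the lists were chosen with earlier results of these data known, and the motifs after the sequences were seen. Promoter windows come from RefSeq (GRCm38.p6). Alternatives were a robust eBayes with a trend, a mean signal over 20 as a filter, a fit of 2 diets alone, array weights, the replicate number as a block, median centring, repeated quantile normalization, an exact permutation test, Tukey's post hoc test, the mean of all probe sets of a gene, leaving out each liver, and leaving out Trans replicate 4 with Cis replicate 8.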

Additional observations from a re-analysis of the deposited data

How the results depend on the processing

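No gene of the 10 was called at an adjusted p under 0.05 under any alternative that has one. By the exact permutation test at an unadjusted p under 0.05, 1 gene passed in Trans against Saturated (Apoa2), and of the 51 further genes 9 passed in Trans against Saturated, 8 in Trans against Cis and 5 in Cis against Saturated. The share of all genes passing this permutation test is not given here, so these counts cannot be set against one. The replicate numbers of the labels were not taken as pairs, since no label says that they mark a shared batch. Same-numbered livers had a median correlation of deviations of 0.0399 (10 of 24 pairs over 0.1). Pairs with different numbers had −0.00319 (38 of 168 over 0.1), so values over 0.1 were more frequent among same-numbered livers. Whether a batch is shared by number was not tested. With the replicate block, 0 genes were called, and Apoa4 passed 0.05 before the adjustment but not after it, for Trans against Saturated (log2 difference 0.3352, limma, adjusted p = 0.632) and Trans against Cis (0.3422, adjusted p = 0.779). The share of all genes passing 0.05 before the adjustment in the block fit is not given here, so these passes cannot be set against it. Of 330 log2 differences under the other settings, 9 changed sign, none with a reported size over 0.0194. These were, for Trans against Saturated, Apob with array weights (0.0148) and with Trans replicate 4 and Cis replicate 8 left out (0.0295); for Trans against Cis, Apoc1 after quantile normalization (0.0031); and for Cis against Saturated, Apoa4 with array weights (0.0329), median centring (0.0108) and the mean of its probe sets (0.0062), and Apoe with array weights (0.0043), median centring (0.0163) and those 2 livers left out (0.0047). Leaving out 1 liver changed the sign of 43 of 720 differences, none with a reported size over 0.0475. Their ranges were, for Trans against Saturated, −0.0412 to 0.0295 (Apob) and −0.014 to 0.0246 (Apoc1); for Trans against Cis, −0.049 to 0.0294 (Apoa5), −0.0219 to 0.0572 (Apob) and −0.0298 to 0.0074 (Apoc1); and for Cis against Saturated, −0.1425 to 0.0718 (Apoa4), −0.0422 to 0.0025 (Apob), −1e-04 to 0.0331 (Apoc1), −0.0157 to 0.0081 (Apoe), −0.0056 to 0.0714 (Mttp) and −0.0229 to 0.1514 (Tm6sf2). The causes were not tested.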
